A study of Drosophila melanogaster with 2 samples.

Results

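The cytosolic ribosomal protein (RP) genes of Drosophila melanogaster were taken as the protein-coding genes whose symbol starts with RpL, for proteins of the large ribosomal subunit, or RpS, for proteins of the small subunit. This gave 92 of 13945 protein-coding genes, 54 of the large and 38 of the small subunit. Occupancy of the transcription factor gem was mapped by chromatin immunoprecipitation and sequencing (ChIP-seq) in whole embryos aged 0 to 24 h, males and females pooled. All embryos came from a single transgenic line that stably expresses gem with GFP at its C-terminus, and the precipitating antibody was directed against GFP. The series had 1 group of 2 biological replicates, numbered 1 and 4, both of this genotype and age. The driving promoter of the fusion, and the fate of the untagged gem copies, are not given in the sources used here. Embryos lacking the GFP fusion were not analysed here, which leaves background of the precipitation unmeasured, and whole embryos mix all tissues and stages of embryogenesis.

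Ribosomal proteins, together with ribosomal RNA, form the subunits of the ribosome that translates messenger RNA. Their genes are among the most highly expressed, and loss of a single copy of many of them gives the Minute phenotype of slow growth and thin bristles. In flies their promoters are known for a polypyrimidine (TCT) initiator in place of the usual initiator, and for the factors DREF, M1BP and TRF2. Gem belongs to the CP2 branch of the CP2 and Grainyhead family of DNA-binding proteins.

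Most RP genes had a gem-GFP peak at their promoter. A promoter peak is 1 whose summit, its highest point, lies within 500 bp of an annotated transcription start site (TSS) of the gene. The main list holds the 11045 peaks kept by the authors' irreproducible discovery rate (IDR) procedure, which ranks peaks by how well their order holds between replicates. It held a promoter peak for 63 of 92 RP genes (68.5%), with a 95% interval of 58.0 to 77.8%, where the background over all protein-coding genes was 24.6%. A peak of this list need not have a summit in each replicate's own list. Both replicates had a summit within 100 bp at 57 of these 63 genes (90.5%), against 93.6% of all genes with an IDR promoter peak. The pooled list of 30000 peaks, called on both replicates together, gave 68 RP genes (73.9%) against 35.0% of all genes. Replicate 1 alone gave 65 (70.7%) against 34.5%, and replicate 4 alone gave 74 (80.4%) against 38.6%, each from 30000 peaks. When each replicate was limited to its 11045 strongest peaks, the counts were 57 (62.0%) against 24.5% in replicate 1 and 74 (80.4%) against 27.4% in replicate 4. In every one of these lists the share of RP genes was above that of all genes, and in replicate 4 it was higher than in replicate 1. Intervals are exact Clopper-Pearson intervals and cover counting error only. Genes are not replicates and there is no second condition, so no test was made.

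**Figure D1:**
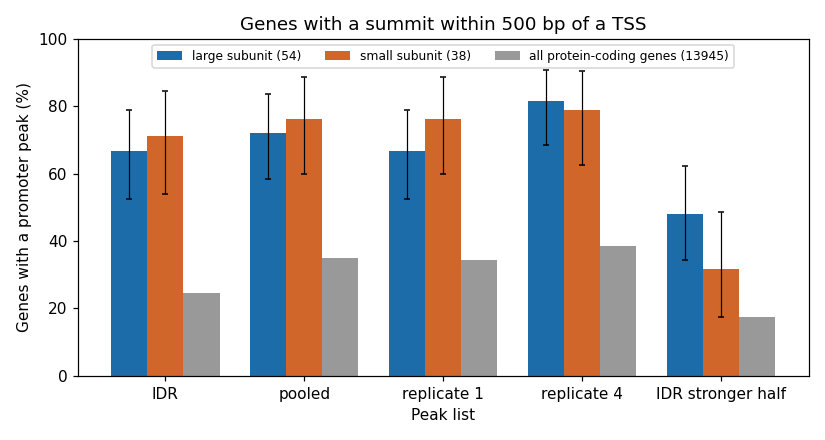
Percent of large subunit (54), small subunit (38) and all protein-coding genes (13945) with a summit within 500 bp of a TSS in each peak list, with exact 95% intervals as error bars; the last group of bars uses the 5522 strongest IDR peaks. Both subunits stand above all genes in each list, for example 66.7% and 71.1% against 24.6% in the IDR list.

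The peaks of most RP genes were of middling height. Signal is each peak's own value as deposited; its scaling is not stated and read depth is unknown, so levels are compared within a list, and between the replicates only by rank or as a ratio relative to the median ratio over all IDR peaks. Over the IDR list signal ran from 187 to 17817.8 with a median of 432. Over the 63 RP genes it ran from 197 at RpS9 to 3741 at RpL34b, with a median of 532, while the median over the 3432 protein-coding genes with an IDR promoter peak was 804. Among the 5522 strongest IDR peaks, 38 RP genes (41.3%) kept a promoter peak, against 17.4% of all genes. RP genes with an IDR peak were therefore frequent, but their median signal was below that of bound genes in general.

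The strongest peaks of each subunit stood out from this level. RpL34b, a large subunit gene on 3R, had signal 3741 in the IDR list (rank 252), 2682 in replicate 1 and 1067 in replicate 4, at chr3R:9401134-9401602 with the summit 165 bp upstream of its TSS. RpS20, which encodes a protein of the head of the small subunit, had 2353 in the IDR list (rank 633), 1702 in replicate 1 and 644 in replicate 4, at chr3R:20821814-20822222, 139 bp upstream. Both peaks held nearly the same rank in each replicate, 260 and 263 for RpL34b and 638 and 672 for RpS20. The RpL34b summit lay closer to the divergent neighbour CG8132, 104 bp away, than to RpL34b itself. The promoter sequences of these 2 genes (dm6, gene strand, from 200 bases before the TSS to 10 after it) are shown because they carry the highest signals. Capitals mark the 11 bases centred on the IDR summit. RpL34b lies on the minus strand at chr3R:9401216-9401426 and RpS20 on the plus strand at chr3R:20821981-20822191.
RpL34b: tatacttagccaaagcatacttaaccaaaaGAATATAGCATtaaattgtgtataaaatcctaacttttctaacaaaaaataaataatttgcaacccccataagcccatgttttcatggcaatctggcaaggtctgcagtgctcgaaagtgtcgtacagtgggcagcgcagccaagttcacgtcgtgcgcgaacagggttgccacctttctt
RpS20: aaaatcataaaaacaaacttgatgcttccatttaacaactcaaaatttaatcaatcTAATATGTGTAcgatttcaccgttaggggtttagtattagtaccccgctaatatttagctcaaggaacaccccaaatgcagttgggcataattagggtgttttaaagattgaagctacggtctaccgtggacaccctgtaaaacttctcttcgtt

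The genes next in order differed in how they ranked in the replicates. RpS27, which encodes a zinc-binding protein of the small subunit, had 1772 in the IDR list, 1080 in replicate 1 (rank 1322) and 705 in replicate 4 (rank 566), at chr3R:25247352-25247915 and 43 bp upstream. RpL32, whose transcript often serves as a reference in fly expression work, had 1673 in the IDR list, 1103 in replicate 1 (rank 1288) and 577 in replicate 4 (rank 811), at chr3R:30046070-30046573 and 130 bp upstream. Both stood higher in the replicate 4 ranking than in that of replicate 1. RpL10Ab had 1365 in the IDR list, 990 in replicate 1 (rank 1477) and 371 in replicate 4 (rank 1620), at chr3L:11822207-11822871 and 238 bp upstream. RpL10Ab thus ranked somewhat lower in replicate 4, unlike RpS27 and RpL32. RpS25 had 996 in the IDR list, 563 in replicate 1 and 436 in replicate 4, at chr3R:11216236-11216546 and 98 bp upstream. RpS16, the fourth of the small subunit, had 762, 385 and 373 in the same order of lists, at chr2R:22605736-22606177 and 90 bp upstream. Genes at the middle of the range were RpL4, a large subunit protein near the exit tunnel, with 532 in the IDR list, 249 in replicate 1 and 275 in replicate 4, and RpS21 with 550, 306 and 256. RpL22 had 525, 304 and 223, and RpS19a had 520, 306 and 247 in these lists.

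**Figure D2:**
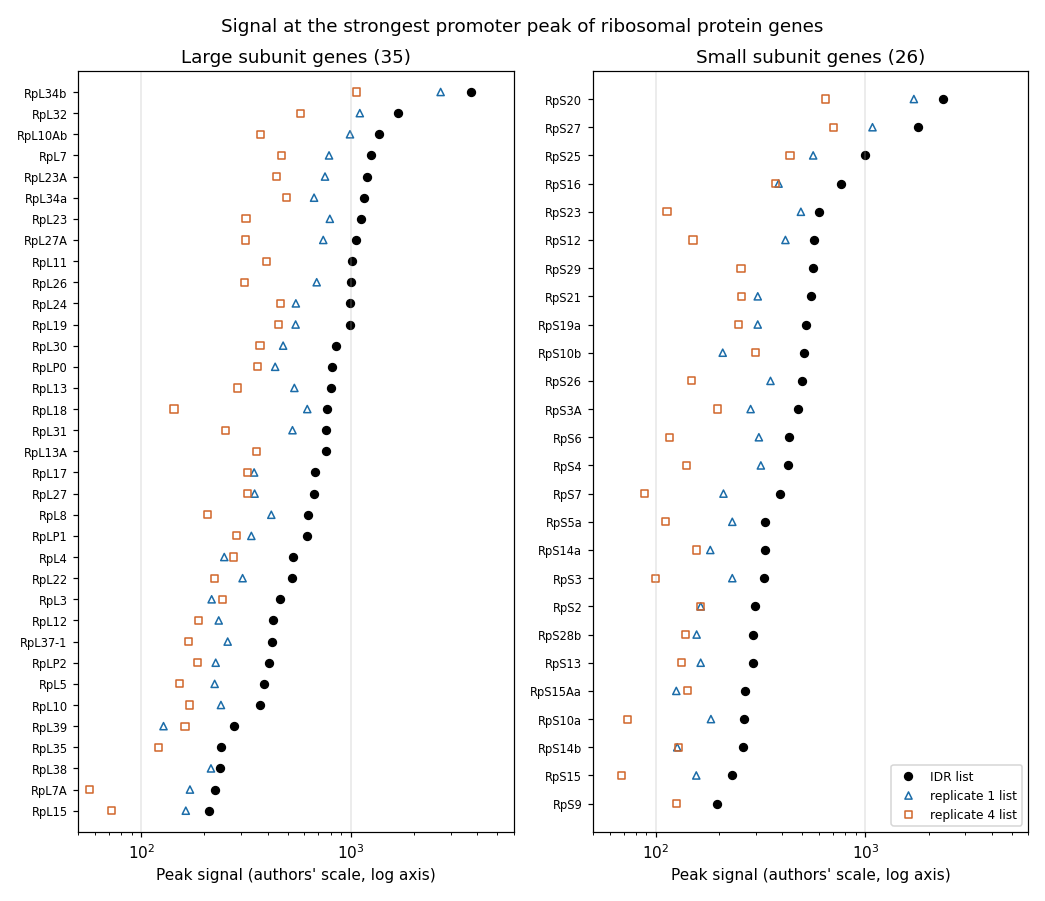
Signal on a log axis at the strongest promoter peak of 35 large and 26 small subunit genes with an IDR promoter peak, in the IDR list, replicate 1 and replicate 4 (a missing symbol means no summit of that replicate within 100 bp of the IDR summit). RpL34b (3741) and RpS20 (2353) lead their subunits; RpL11, RpL13A, RpL35, RpS9 and RpS29 have no replicate 1 symbol and RpL38 no replicate 4 symbol.

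The 2 subunits had similar shares of genes with a peak but different signal. In the IDR list 36 of 54 large subunit genes (66.7%, 95% interval 52.5 to 78.9) and 27 of 38 small subunit genes (71.1%, 54.1 to 84.6) had a promoter peak, a difference of -4.39 percentage points, large minus small. In replicate 1 the shares were 66.7% and 76.3%, in replicate 4 they were 81.5% and 78.9%, and in the pooled list 72.2% and 76.3%. The sign of the difference changed between replicates, and the intervals overlapped in every list. Signal did not follow the shares. The median over genes with a peak was 764 for the large and 425 for the small subunit in the IDR list, 671 and 392 in the pooled list, 382 and 231 in replicate 1, and 279 and 167 in replicate 4. The large subunit median was the higher in all 4 lists, which are not independent. RP genes with an IDR peak had the same peak and signal in the pooled list, which was called on both replicates. The 2 replicates are the only separate measurements. As a percentile of the IDR list the medians were 71.5 and 49.5. Of the 10 RP genes with the highest signal 8 belonged to the large subunit, as did 36 of all 63 RP genes with an IDR peak. Among the 5522 strongest IDR peaks the shares were 48.1% for large and 31.6% for small subunit genes. The groups overlapped over almost their whole range, 211 to 3741 for the large and 197 to 2353 for the small subunit. With 2 replicates no exact test of this difference can pass 0.05.

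Most summits lay upstream of the TSS, with a median nearer to it than that of all bound genes. Positions are given on the gene's own strand relative to its nearest TSS, with negative values upstream. The median IDR summit of RP genes was at -102 bp (interquartile range -139.5 to -46.0), against -162 bp (-258 to -102) over all 3432 bound genes. The 13 bound translation initiation and elongation factor genes had a median nearer still, at -76 bp. Large subunit genes had a median of -103.5 bp and small subunit genes of -102 bp. In the replicate lists the RP median was -99 bp in replicate 1 and -70.5 bp in replicate 4, against -159.5 bp and -146 bp for all genes with a peak there. The order was the same in each list, and within replicate 4 the RP summits were the closest to the TSS. Upstream summits made up 58 of 63 (92.1%), against 88.8% of all bound genes. Between -49 and 50 bp lay 18 RP summits (28.6%), where 6.08% of the 3369 other bound genes had theirs, and 0 lay from 51 to 500 bp downstream, where 8.43% of the others did. Another 25 RP summits lay from -199 to -100 bp (39.7% against 38.3% of others), 12 from -99 to -50 bp (19.0% against 9.20%) and 8 from -500 to -200 bp (12.7%, with 1281 of the others). RP genes therefore had fewer distant summits and none far downstream.

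**Figure D3:**
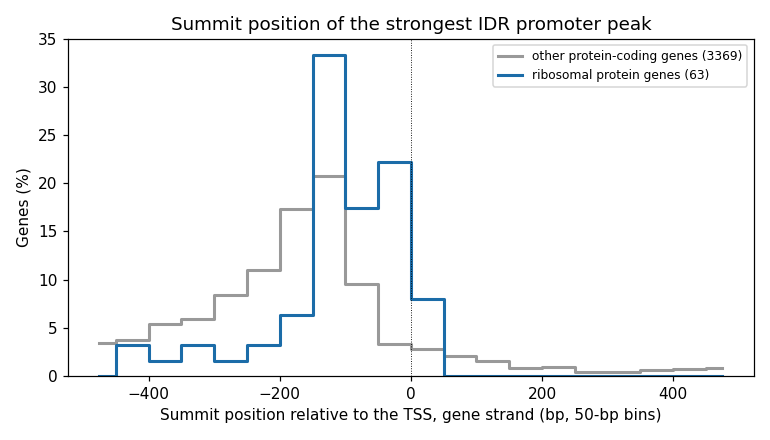
Percent of the 63 RP genes and of the 3369 other protein-coding genes with an IDR promoter peak whose strongest summit falls in each 50-bp bin relative to the TSS (0, dotted; negative is upstream). RP summits pile up between -150 bp and the TSS, with a median of -102 bp against -162 bp for all bound genes.

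At the edges of this range, RpS23, a protein near the decoding centre, had its summit at -430 bp with signal 600 in the IDR list, 492 in replicate 1 and 113 in replicate 4. RpS6, the substrate of S6 kinase, had its summit at -428 bp with 431, 310 and 116, but that summit was 121 bp from bys, a gene for a ribosome biogenesis factor. These replicate values are at the summit matched to the IDR summit, and the strongest replicate 4 promoter peak of RpS23 was another, with signal 171 at -66 bp. On the downstream side, RpL7 had its summit at 44 bp, inside its 5' UTR, with signal 1250, 787 and 468, and RpL3, a protein next to the peptidyl transferase centre, had it at 36 bp, in its coding exon, with 457, 216 and 244. Of the 63 summits, 51 (81.0%) lay in intergenic sequence, against 62.3% of all bound genes. A further 7 lay in the gene's own 5' UTR (RpL5, RpL7, RpL26, RpLP0, RpS15Aa, RpS16 and RpS29), 2 in the 5' UTR of the neighbouring genes Dref and Neos (for RpL13 and RpL18), and 1 each in an own intron (RpL35), in an intron of tau (RpS10a) and in the coding exon of RpL3. Another gene's TSS was nearer to the summit at 9 of the 63 genes, and 6 genes had 2 IDR peaks within the window. Among genes with a matched summit in both replicates, the own TSS was nearest at 48 of 57 RP genes and 2303 of 3157 others. The count of genes with 2 peaks was not made over other genes. RP peaks were narrower than others, with a median width of 339 bp against 396 bp; 11 of the 63 had the width of 404 bp that recurs in 2503 IDR peaks with the summit at the centre.

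The summits were searched for short motifs on both strands, within 50 bp to each side. The DREF core ATCGAT lay at 12 of 63 RP summits (19.0%), against 5.14% of the 2607 summits at bound genes and 3.04% of all IDR summits. These 12 were RpL19, RpL26, RpL27, RpL39, RpS2, RpS6, RpS10b, RpS13, RpS15Aa, RpS25, RpS28b and RpS29. The large subunit had it at 4 of 36 (11.1%) and the small subunit at 8 of 27 (29.6%). Position moved with this share: among summits from -99 to 50 bp it was 9 of 30 RP summits and 13.5% of 473 others. Within 100 bp to each side the shares were 28.6% of RP summits against 13.3% at bound genes, a smaller ratio but not a smaller difference. From -99 to 50 bp they were 36.7% against 26.4%, smaller by either measure. The M1BP motif 1 core GTCACAC lay at 3 RP summits (RpL30 and RpLP0 among them; 4.76% against 1.11%). The core ACCGGT shared by Grainyhead and CP2 factors lay at 1 RP summit, that of RpLP0 (1.59% against 0.690%). A CP2 repeat, 2 copies of CCAG with 6 bases between them, lay at 0 of 63 (0.115% of bound genes), as did the GAGA repeat GAGAGAG (0.499%) and the Zelda core CAGGTA (1.57%). TATAAA lay at 15.9% against 29.6%. RP summits were also richer in G and C, with a median of 36.6% against 27.7% at bound genes and 28.7% over the IDR list. From -99 to 50 bp the medians were 43.6% and 31.7%, so base composition differs beside each of these shares, and its part in them was not tested. A match describes letters in the window and is no evidence of a factor there.

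Promoters of all genes were searched the same way, from 250 bp before to 49 bp after the canonical TSS, 300 bases in all. ATCGAT was held by 42.4% of the 92 RP promoters against 22.7% of all 13945, GTCACAC by 15.2% against 9.39%, ACCGGT by 0 against 2.86%, and TATAAA by 45.7% against 45.3%. The ACCGGT of RpLP0 is not counted here because the gene's canonical TSS is the upstream of its 2. Among RP promoters, ATCGAT was held by 41.3% of the 63 with a peak and 44.8% of the 29 without. The TCT initiator, searched as TCTTT on the gene's strand with its C within 5 bp of an annotated TSS, was present in 45 RP genes (48.9%) against 2.23% of all genes. It was present in 52.4% of RP genes with an IDR peak and 41.4% of those without, and in 27 of 54 large and 18 of 38 small subunit genes. The following promoters (dm6, gene strand, from 150 bases before the TSS to 10 after it) show where these elements sit relative to the summit. Capitals mark the DREF core, the M1BP core on either strand and the initiator match at the TSS. They lie at chr3R:30046151-30046311 (RpL32, minus strand), chr3R:25685041-25685201 (RpL27, minus), chr2L:419802-419962 (RpLP1, plus), chr3R:11216277-11216437 (RpS25, minus), chrX:19597881-19598041 (RpS10b, plus) and chr3R:11221744-11221904 (RpL3, plus).
RpL32: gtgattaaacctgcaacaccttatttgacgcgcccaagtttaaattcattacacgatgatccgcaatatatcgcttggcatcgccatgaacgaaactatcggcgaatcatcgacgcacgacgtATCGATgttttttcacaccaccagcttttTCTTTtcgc
RpL27: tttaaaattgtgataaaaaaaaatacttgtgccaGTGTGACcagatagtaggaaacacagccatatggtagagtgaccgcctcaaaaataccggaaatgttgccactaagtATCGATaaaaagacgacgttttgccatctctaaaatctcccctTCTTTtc
RpLP1: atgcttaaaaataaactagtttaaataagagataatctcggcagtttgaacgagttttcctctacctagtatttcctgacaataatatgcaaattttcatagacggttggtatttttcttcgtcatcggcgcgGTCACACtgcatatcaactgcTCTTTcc
RpS25: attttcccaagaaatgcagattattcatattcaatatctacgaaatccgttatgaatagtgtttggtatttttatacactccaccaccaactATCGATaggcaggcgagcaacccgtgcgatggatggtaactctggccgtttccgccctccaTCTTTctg
RpS10b: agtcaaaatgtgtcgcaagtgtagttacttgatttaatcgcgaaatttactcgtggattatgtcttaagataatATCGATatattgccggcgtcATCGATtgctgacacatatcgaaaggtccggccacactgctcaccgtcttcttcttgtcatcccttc
RpL3: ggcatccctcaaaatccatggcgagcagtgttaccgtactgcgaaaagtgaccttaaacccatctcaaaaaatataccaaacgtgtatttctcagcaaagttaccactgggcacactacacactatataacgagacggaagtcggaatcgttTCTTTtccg

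In RpL32 the DREF core starts at -27 bp and the summit is at -130 bp. RpL27, whose summit is at -13 bp, has the core at -39 bp and an M1BP core at -116 bp. RpLP1, a protein of the ribosomal stalk that recruits elongation factors, has an M1BP core at -17 bp and its summit at -114 bp. RpS25 has the DREF core at -58 bp and its summit at -98 bp. RpS10b has 2 copies, at -76 and -56 bp, and its summit at -102 bp. In these 5 genes the summit and the capitals fall within the same 150 bp but do not coincide at a fixed distance, and RpL3 has a TCT initiator with neither core and its summit at 36 bp.

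Signal at RP promoters was distributed between the replicates in another way than at other genes. For each IDR peak with a summit within 100 bp in both replicates, the replicate balance was taken as the log2 ratio of replicate 4 to replicate 1 signal minus the median of that ratio over all 10416 such peaks (-1.29). A value above 0 means that the peak stood relatively higher in replicate 4. Of the 63 RP genes, 57 had a value. The median was 0.76 (interquartile range 0.10 to 1.05), with 0.76 in the large subunit (32 genes) and 0.76 in the small (25 genes), against 0.04 over 3157 other bound genes. Balance was above 0.5 at 34 of the 57 RP genes (59.6%), against 14.5% of all bound genes, and below 0 at 10. In ranks, the RP median was 5377 in replicate 1 and 3176 in replicate 4, and 42 of 57 ranked better in replicate 4. Over other genes the medians were 2899 and 2719, and 56.4% ranked better in replicate 4. Among RP genes the 2 replicates' signals still followed each other, with a Spearman coefficient of 0.77 over 57 genes, which share the 2 libraries. Each replicate is a single library, so a difference between these embryo collections and a difference between library preparations cannot be told apart.

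**Figure D4:**
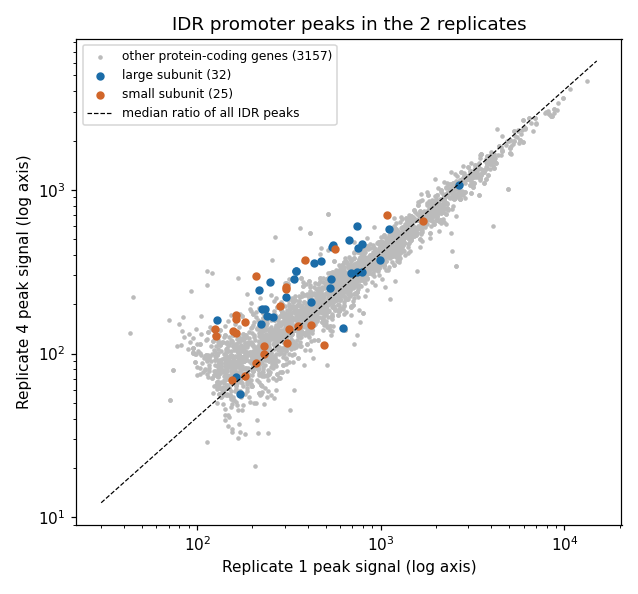
Replicate 1 against replicate 4 signal (log axes) at the strongest IDR promoter peak of 32 large subunit, 25 small subunit and 3157 other protein-coding genes matched in both replicates; the dashed line is the median ratio of all IDR peaks. Most RP genes lie above the line, with a median replicate balance of 0.76 against 0.04 for other genes.

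The balance varied among RP genes with the position of the summit. The highest values were at RpS10b (1.80; signal 208 in replicate 1 and 297 in replicate 4), RpL39 (1.63; 128 and 161), RpS15Aa (1.47; 125 and 142), RpL3 (1.46; 216 and 244) and RpL4 (1.43; 249 and 275). The lowest were at RpS23 (-0.83), RpL18 (-0.82; 619 and 143) and RpL7A (-0.30; 171 and 57), with RpS20 (-0.11) and RpL34b (-0.04) near 0. At the 3 lowest the strongest replicate 4 promoter peak was not the matched one, with 171 at -66 bp for RpS23, 221 at -87 bp for RpL18 and 84 at 28 bp for RpL7A. By position the RP medians were -0.16 from -500 to -200 bp (8 genes), 0.66 from -199 to -100 bp (23), 0.92 from -99 to -50 bp (9) and 1.01 from -49 to 50 bp (17). Other genes had 0.06, 0.01, 0.13 and 0.14 in the same intervals. The Spearman coefficient of position and balance was 0.62 over the 57 RP genes and 0.02 over the 3157 others, given as a description since all points come from the same 2 libraries. With each replicate's strongest promoter peak in place of the matched one, an alternative chosen after seeing the data, the median balance was 0.79 at 59 RP genes and 0.05 at 3213 others, and the coefficients were 0.56 and 0.03. In the last 2 intervals all 9 and all 17 RP genes with a value were above 0. Most other genes there were above 0 too, 171 of 276 and 129 of 194. At the 48 RP genes whose own TSS was nearest to the summit the median was 0.85, and at the 9 with another gene's TSS nearer it was -0.04. These 9 ran from -0.82 at RpL18 (nearer to Neos) to 0.99 at RpS13 (nearer to CSN8), with 5 below 0 and 4 above. With IDR signal between 332 and 920, the interquartile range of RP genes, the median balance was 0.79 at 29 RP genes and 0.13 at 1090 others. Limited further to summits within 50 bp of the TSS it was 1.01 at 9 RP genes and 0.19 at 74 others. The part of signal and of position in the balance was not tested.

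**Figure D5:**
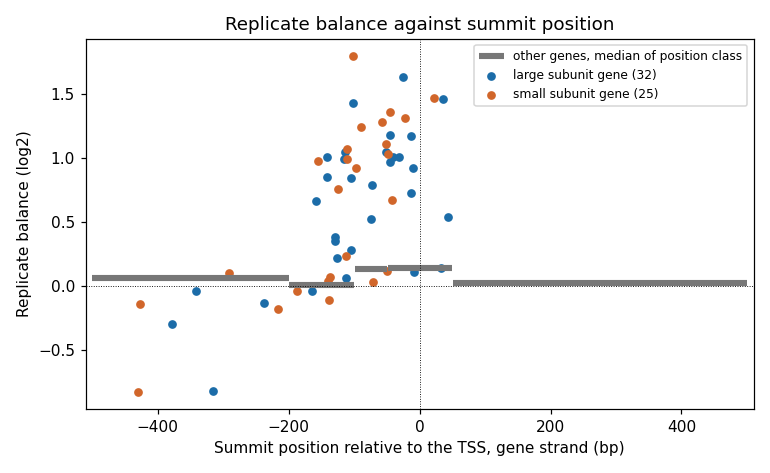
Replicate balance (log2, 0 is the median of all IDR peaks) against summit position relative to the TSS for 32 large and 25 small subunit genes, with the median of other genes in each position class as grey bars. The RP values lie around -0.16 beyond 200 bp upstream and around 1.01 within 50 bp of the TSS, while the bars stay between 0.01 and 0.14.

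The RP genes without an IDR promoter peak, 29 in all, differed in the lists that held them. RpL21, RpL35A, RpL40, RpS5b and RpS28-like had a promoter peak in the pooled list, with signal between 54 and 164. Of these, RpL21 and RpL40 also had peaks in both replicates, RpL35A in replicate 4 and the remaining pair in replicate 1. RpL40 encodes a fusion of ubiquitin with a ribosomal protein, and its nearest IDR summit lay 518 bp from a TSS, just outside the window. RpL14, RpL28, RpL36, RpL37A, RpL6 and RpS27A, the last also a ubiquitin fusion, had a promoter peak in replicate 4 only. RpL14 had 547 there (rank 883, summit at -41 bp) and RpL28 had 377 (rank 1576, -129 bp), yet the nearest pooled summits were 3466 and 17499 bp away. The others ranged from 154 at RpL6 to 213 at RpS27A. RpS24 had promoter peaks in both replicates, with 56 in replicate 1 and 121 in replicate 4, but none in the pooled list. RpL14 and RpL28 thus had strong replicate 4 peaks without a pooled counterpart. Of the 11045 strongest replicate 4 peaks at RP promoters, 9 of 84 (10.7%) had no pooled summit within 500 bp, against 7.30% of those at protein-coding promoters and 4.07% of all. For replicate 1 it was 1 of 60 (1.67%), against 2.94% and 2.11%. What removed these peaks from the pooled list is not given in the sources used here. Conversely RpL13A, RpL35, RpS9 and RpS29 had an IDR and a replicate 4 peak but no replicate 1 summit within 500 bp, and the RpL11 IDR peak (signal 1011) had 395 in replicate 4 and no replicate 1 summit within 100 bp.

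No promoter peak in any list was found for 16 RP genes, 10 of the large and 6 of the small subunit. They included RpL9, RpL10Aa, RpL29, RpL36A, RpL37-2, RpL41, RpL7-like, RpL22-like, RpL24-like, RpLP0-like, RpS15Ab, RpS18, RpS19b, RpS28a and RpS30. RpLP0-like and RpS19b had an IDR summit just beyond the window, at 637 and 893 bp. For the other 14 the nearest IDR summit was at least 1716 bp away, at RpL41.

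Paralogue pairs accounted for many of these. In 14 pairs of RP genes with related sequence or name, the copy taken as first was the canonical one where known, a choice made with earlier results of these data known, so that the contrast is a description. All 13 first copies had an IDR promoter peak, against 3 of 14 second copies (21.4%), and 9 second copies had none in any list. The share of second copies was thus near the 24.6% of all protein-coding genes, and that of first copies was above it. The 9 second copies told apart by a letter or number held all 3 of the bound ones, and of the 5 named as -like genes 0 were bound. RpL7-like, RpL24-like and RpLP0-like are related to ribosome assembly factors known from yeast. Several second copies are known for expression in the germline, among them RpL22-like, RpS5b and RpS19b. The bound second copies were RpL34a with 1153 in the IDR list, 667 in replicate 1 and 491 in replicate 4 (RpL34b had 3741), RpS10a with 264, 183 and 73 (RpS10b had 508) and RpS14b with 260, 126 and 129 (RpS14a had 331). In each of these 3 pairs the second copy had the lower IDR signal. RpS14a and RpS14b lie in tandem on X with nearly the same sequence, and how the authors treated reads that map to both is not given, so their values are uncertain. The other first copies ranged from 266 at RpS15Aa to 1365 at RpL10Ab, with RpL7 at 1250, RpL24 at 993, RpLP0 at 813, RpL22 at 525, RpS19a at 520, RpL37-1 at 419, RpS5a at 333 and RpS28b at 291. RpS5b had a pooled signal of 64 and RpS28-like of 108. Without second copies 60 of 78 RP genes (76.9%) had an IDR promoter peak, 35 of 47 large (74.5%) and 25 of 31 small subunit genes (80.6%).

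The number of annotated TSSs moved with the share of bound genes. Among genes with a single TSS 29 of 48 RP genes and 18.4% of all genes had an IDR promoter peak, with 2 TSSs 23 of 29 and 35.0%, and with 3 TSSs 9 of 12 and 51.7%. All genes taken at the RP genes' numbers of TSSs would give 29.5%, against the observed 68.5%. That figure takes only the number of TSSs into account, and the cause of the difference was not tested. Where another protein-coding TSS lay within 500 bp, 23 of 37 RP genes (62.2%) were bound, against 37.5% of all such genes, and without a close neighbour 40 of 55 (72.7%), against 18.8%. By chromosome arm the counts were 13 of 14 on X, 12 of 14 on 3L, 14 of 23 on 3R, 12 of 21 on 2R, 11 of 19 on 2L and 1 of 1 on 4, where all genes ran from 21.5% on 2R to 46.2% on 4.

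Other genes of the translation machinery were set beside the RP genes. Of 73 mitochondrial RP genes 30 (41.1%) had an IDR promoter peak, with a higher median signal (904), a median position of -158 bp and a median balance of 0.06. The strongest were mRpL41 (14807.8), mRpS10 (13416.8) and mRpS23 (9113). Of 52 translation initiation and elongation factor genes 13 were bound, a share close to the 24.6% of all genes, with a median position of -76 bp. They were led by eIF4EHP (7589), eIF6 (5957) and eIF3h (1775). Of 20 nucleolar ribosome biogenesis genes 10 were bound, led by Ns2 (4675), NHP2 (1629) and nop5 (1250), with a median position of -145.5 bp and a median balance of 0.11. The cytosolic RP genes had the largest share of bound genes among these lists and the lowest median signal. Rack1, a small subunit protein whose symbol falls outside the rule, had signal 665 at -3 bp and a balance of 0.93, while sta, another such gene, had no IDR promoter peak. Among the elongation factors, eEF1gamma (0.72), eEF2 (1.14), eEF1alpha1 (0.63) and eEF5 (0.76) had balances above 0.5, as did eIF4E1 (1.25). These were 5 of the 11 translation factors with a value (45.5%), against 59.6% of RP genes and 14.5% of all bound genes. The translation factor median was 0.06. Of 8 genes for regulators linked to RP promoters, M1BP (2828), Trl (1567), Max (1194) and Dref (804) were bound. The Dref peak is also that of RpL13.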

How the data were processed

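ChIP-seq peak lists of 1 group (2 biological replicates, 1 and 4) were used. Per the listings deposited with the samples, each replicate's peaks were called on its own alignment with a control alignment as further input, the pooled list on both alignments, and the IDR list from these lists, all on dm6. The aligner, caller, IDR threshold and read filters are not given in the sources used here. The signal of each peak is the value deposited by the authors, with no stated scaling. The −log10 q-value, also deposited by the authors, was not used to rank peaks. The deposited summit offset gave the summit. Read depth is unknown.

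Gene models were Ensembl release 115 (BDGP 6.54) and the sequence was the RefSeq release 6 assembly, whose arm lengths fit the peaks. Promoter peaks had a summit within 500 bp of any TSS of a gene, and a gene's value is that of its strongest promoter peak. Replicate peaks were matched to the IDR summit within 100 bp, and the balance uses the matched peak, not the replicate's strongest promoter peak. Shares carry exact Clopper-Pearson 95% intervals. With 1 group no test was run and no adjusted p-value is given. Genes given in full are the 4 strongest of each subunit, 4 nearest to the median signal, the 2 at each edge of the position range, paralogue pairs, genes without an IDR peak and up to 3 of each other list. Genes named for the highest and lowest replicate balance, for a motif at the summit and beside the other lists' top genes, and the 8 printed promoters, were chosen after their values were seen. The members, gene lists and measures were chosen with earlier results of these data known. Of the other lists, 5 symbols matched no annotated gene and were left out. Some genes enter the counts but their own values are not reported here. Python 3.11.15, pandas 2.3.3, numpy 2.4.6, scipy 1.17.1 and matplotlib 3.10.9 were used, and the peak-to-TSS assignment and the balance were tested on simulated data. Alternatives changed the window, the TSS set, the list, the replicate, the matching distance and the motif window.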

Additional observations from a re-analysis of the deposited data

How the results depend on the processing

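The replicate balance and its settings, and the counts without second paralogue copies, were chosen after seeing the data. The RP share stayed above that of all genes in each list. It was 41.3% with the 5522 strongest IDR peaks, with 48.1% for large and 31.6% for small subunit genes. A share cannot rise in this shorter list, but the fall was unequal. Of genes with an IDR promoter peak, 26 of 36 large and 12 of 27 small subunit genes kept one, against 2426 of all 3432. With a single replicate's 11045 strongest peaks the large subunit share ran from 61.1 to 81.5%. The difference between subunits, -4.39 points in the IDR list, was not stable. It was -0.195 with a 250 bp window, -8.38 with the nearest TSS only, 2.44 when the peak had to cover a TSS, 16.6 with the 5522 strongest peaks, and from -2.05 to 2.53 with single replicates. The cause was not tested. Median signal percentiles depend on list length by construction. They were 54.1 for large and 22.3 for small subunit genes with the 5522 strongest peaks and 88.0 and 79.8 in the pooled list, and with single replicates they ran from 63.9 to 78.0 and from 47.8 to 59.9. The median position ran from -102 to -70.5 bp with single replicates (large -99 to -68.5, small -102.5 to -72) and the upstream share from 85.1 to 91.2%. Of the 63 RP summits, 84.1% had a match among the 11045 strongest peaks of both replicates within 100 bp (87.5% of all bound genes) and 69.8% within 50 bp. In promoter windows the motif shares were 42.4% for the DREF core, 15.2% for the M1BP core, 45.7% for TATAAA and 0 for ACCGGT, and TATAAA rose to 30.2% within 100 bp of summits, in longer windows. The median balance ran from 0.64 to 0.85 over its 6 alternatives. A promoter peak was called under every planned setting at 29 RP genes and under none at 14. The 5522 strongest peaks alone dropped 25 RP genes, and these counts were not made over all genes. With replicate 4 alone 11 RP genes were gained and 0 lost, and with replicate 1 alone 2 were gained and 8 lost. The share over all genes was 27.4% and 24.5% in these lists, against 24.6% in the IDR list. No paired analysis was possible because there is only 1 group. Unknown read depth limits what the absence of a peak can show.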
